A study of Mus musculus with 12 samples.

Results

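The genes described here are 6 of the 32285 genes counted in neonatal mouse liver cells: the metallothioneins Mt1 and Mt2, the zinc exporter Slc30a1, the manganese exporter Slc30a10, the metal importer Slc39a14 and the transcription factor Mtf1. They were matched by symbol. Mt1 and Mt2 were chosen by their higher UMI levels in anemic mice, so their difference between the groups is described without a test. The other 4 genes were tested.

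Livers of 12 C57BL/6 pups were profiled by single-cell RNA sequencing on the 10x 3' platform, with 1 library per mouse, and every captured mRNA molecule was counted once through its unique molecular identifier (UMI). In the 6 mice with phlebotomy-induced anemia (PIA), 20 µL of blood per g body weight was drawn from the facial vein on alternate days from postnatal day 2 to day 10. The 6 control mice were naive and received a daily needle stick without blood loss, and pups were randomised to the groups within litters. All livers were collected on postnatal day 11.

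Metallothioneins are small, cysteine-rich proteins that bind zinc and copper and buffer them in the cytosol. Their genes are switched on by the zinc-sensing factor MTF1, which binds short metal response elements in their promoters, and in liver also by glucocorticoids and by inflammatory cytokines. SLC30 proteins carry metal out of the cytosol and SLC39 proteins carry it in, so that the balance of both families sets the free zinc that MTF1 reads.

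Mt1 and Mt2 are neighbours on chromosome 8 (GRCm38, GENCODE M21), at chr8:94179082-94180327 and chr8:94172664-94173568 on the plus strand, with 5513 bases between them. Slc30a1 lies at chr1:191906767-191913247, Slc30a10 at chr1:185454848-185468762 and Mtf1 at chr4:124802104-124849800, all on the plus strand, and Slc39a14 at chr14:70303469-70351425 on the minus strand. RefSeq promoter windows (GRCm38.p6, 250 bases before to 50 after the start) were given for 5 of the 6 genes, not for Slc39a14. The core of the metal response element was searched on both strands as TGCACNC and TGCGCNC, which can overlap each other. Of 32544 windows, 25.9% held at least 1 match, 1.99% at least 3 and 0.522% at least 4. Mt2 held 4 matches, Mt1 3, Slc30a10 3 (of which 2 overlap on opposite strands), Slc30a1 2 and Mtf1 0. The stretches before the start of the 2 metallothionein genes and of Slc30a1, the classic partner of Mt1 among MTF1 targets, are shown with the matches in capitals, followed by the 30 bases after the RefSeq start of Mt1 that hold its other 2 matches. They lie at chr8:94178839-94179081, chr8:94172368-94172617, chr1:191906531-191906766 and chr8:94179088-94179117, all on the plus strand. A match is a string of letters, not a shown binding site. The counts cover only these windows, which depend on where RefSeq sets the start, so elements outside them are not counted.
Mt1: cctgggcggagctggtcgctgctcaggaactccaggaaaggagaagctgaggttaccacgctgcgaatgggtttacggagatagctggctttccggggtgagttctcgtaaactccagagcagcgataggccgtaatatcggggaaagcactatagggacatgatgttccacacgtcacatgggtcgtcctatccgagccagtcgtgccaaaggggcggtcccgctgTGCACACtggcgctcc
Mt2: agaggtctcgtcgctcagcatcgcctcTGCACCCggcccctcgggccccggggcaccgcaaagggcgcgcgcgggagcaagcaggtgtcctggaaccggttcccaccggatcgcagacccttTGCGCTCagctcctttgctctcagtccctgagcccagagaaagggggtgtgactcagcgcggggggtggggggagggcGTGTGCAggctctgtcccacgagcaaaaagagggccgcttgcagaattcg
Slc30a1: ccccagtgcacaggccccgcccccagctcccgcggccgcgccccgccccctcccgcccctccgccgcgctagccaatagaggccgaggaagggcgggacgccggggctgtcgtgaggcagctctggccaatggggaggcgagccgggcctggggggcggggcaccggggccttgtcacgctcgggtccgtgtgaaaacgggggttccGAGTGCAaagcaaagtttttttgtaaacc
Mt1, after the RefSeq start: ctcTGCACTCcgcccgaaaagTGCGCTCgg

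Libraries held 46252146 to 65960679 UMIs in control and 52021617 to 74545930 in anemic mice, and 206146 of 207537 barcodes were kept. Pairs of libraries shared 51 to 121 barcodes, at most 0.694% of the smaller library. Clusters were named from markers. The 12 classes described here held 197059 cells. A further 1056 cholangiocyte-like and 757 basophil and mast cell-like cells were not analysed here, and 7274 cells in unnamed clusters (3.89% of control and 3.20% of anemic cells) were not used. All 8 hepatocyte markers and all 9 erythroid markers were highest in the class of that name, while the monocyte marker Fn1, the pre-B marker Rag1 and the T marker Cd3g were highest in another class. By their Xist and Y-linked transcripts 4 of the 6 control and 2 of the 6 anemic mice were female. In the stellate-like class 48.3% to 98.7% of a mouse's cells were called doublets, against 4.82% to 18.7% in the hepatocyte-like class. The anemic mice 2 and 3 stood apart: they gave 705 and 775 hepatocyte-like cells, where the other anemic mice gave 1891 to 2783 and the controls 994 to 1374, and they had the most Mt1 there. Levels are given without the scaling factors (TMM) of the fits. They are CPM, the UMIs of a gene per 1000000 UMIs of the class in a mouse. In erythroid-like cells globin genes took 45.7% to 76.5% of these UMIs in control and 63.4% to 81.0% in anemic mice. This lowers the CPM of every other gene in that class. The 3' method counts molecules, so no correction for gene length was applied.

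Mt1, the more abundant metallothionein, was far higher in hepatocyte-like cells of anemic mice. Control mice ranged from 231 to 483 CPM (median 347) and anemic mice from 1525 to 11833 CPM (median 3877). Every anemic mouse lay above every control, and anemia 2 with 11833 and anemia 3 with 7133 CPM lay above the other 4, which ranged up to 5041. The mean levels were 356 ± 83.9 and 5070 ± 3912 CPM (SD, n = 6 each), a ratio of 14.2, and the fitted log2 fold change was 3.96 with a standard error of 0.41. It was 3.24 with anemia 2 and 3 both left out, an alternative added after the values were seen. Mt2 ordered the anemic mice alike, at lower levels. Control mice had 7.37 to 26.3 CPM (median 13.8) and anemic mice 92.5 to 981 CPM (median 297). The groups did not overlap, and the fitted log2 fold change was 4.81 with a standard error of 0.53. In this class the groups did not overlap for 25% of the 11387 genes tested, and nothing is read from that share because the contrast was used to choose both genes. Mt3 and Mt4, the metallothioneins known from brain and squamous epithelium, were not tested in any class for too few UMIs.

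**Figure D1:**
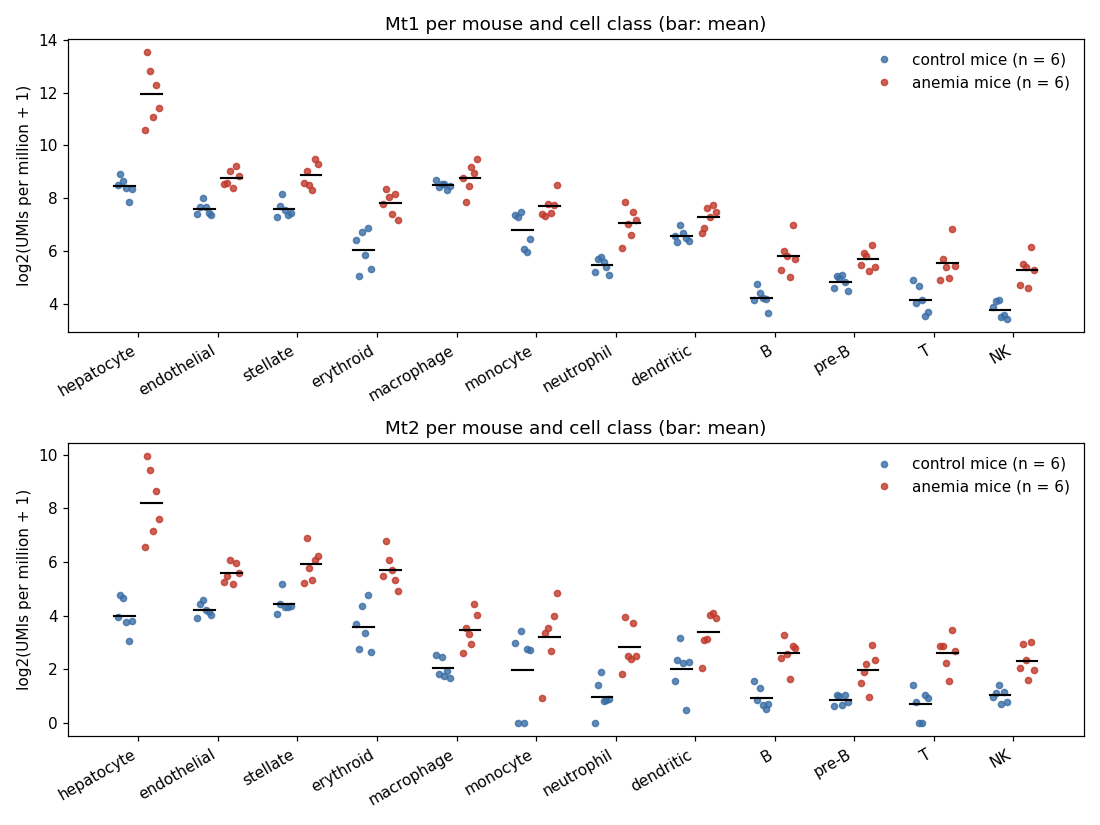
Mt1 (upper panel) and Mt2 (lower panel) in each of the 12 cell classes, as log2(CPM + 1), with 1 point per mouse (6 control in blue, 6 anemic in red) and a bar at the mean of the points. The fitted log2 fold change was largest in hepatocyte-like cells, and for Mt1 the groups overlapped in macrophage-like, monocyte-like and dendritic-like cells.

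Single hepatocyte-like cells differed in the same direction. After each cell was thinned to 500 UMIs, an Mt1 UMI was found in 9.47% to 19.7% of the cells of control mice (median 13.6%) and in 45.7% to 92.9% of those of anemic mice (median 71.3%). Without thinning these shares were 24.7% to 40.8% and 69.3% to 97.6%, at median depths of 1339.5 and 1163.5 UMIs per cell. In B-like cells, which make little metallothionein, the thinned share was 0.581% to 1.14% in control and 1.46% to 5.92% in anemic mice, at 1317.5 and 1504.5 UMIs per cell. The median hepatocyte-like cell held 0 Mt1 UMIs per 10000 in every control mouse and 10.7 to 102 per 10000 in the anemic mice. In control mice the tenth of cells with the most Mt1 UMIs held a median of 65.6% of them, and in anemic mice 42.7%.

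All 5 hepatocyte-like clusters showed the difference in Mt1. Cluster 20, led by Apob, Cps1 and Itih2, had the lowest anemic levels: 704 to 5366 CPM (median 1730) against 212 to 440 CPM in controls (median 384). Clusters 24 and 25, whose leading genes included Gnmt of methionine and Uox of purine breakdown, had medians of 5213 and 5314 CPM in anemic mice, against 328 and 498 CPM in controls. In cluster 25 the lowest anemic mouse had 2016 and the highest control 1156 CPM. The groups did not overlap within any of the 5 clusters, and the control medians of the clusters ranged from 263 to 498 CPM. No share of all genes without overlap is given for single clusters, in this or other classes, so nothing is read from such counts. Cells of clusters 25 and 26 were shallow, with median depths of 0.363 and 0.340 of their library's median. The clusters took different shares of the class in the 2 groups. Cluster 20 held 27.96% of the hepatocyte-like cells of control and 11.93% of those of anemic mice, and cluster 25 held 17.75% and 32.14%. Each was therefore also fitted alone, an alternative added after the values were seen, which gave a log2 fold change of Mt1 of 2.70 in cluster 20 and 3.69 in cluster 25.

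**Figure D2:**
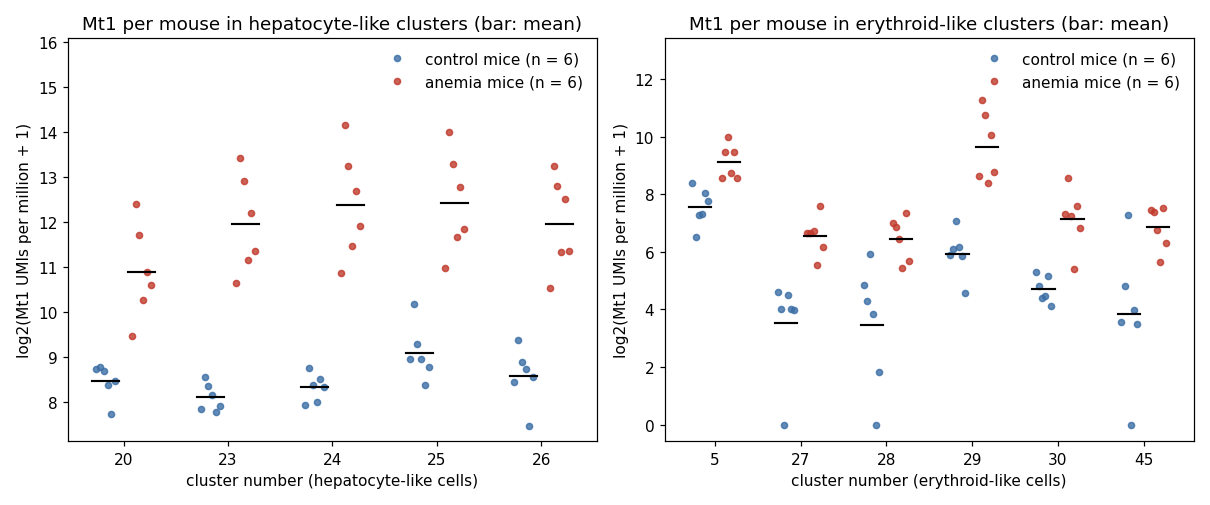
Mt1 as log2(CPM + 1) in the clusters of hepatocyte-like (left) and erythroid-like cells (right), with 1 point per mouse that had at least 5 cells in the cluster and a bar at the mean of the points. Anemic mice lay above the controls in each hepatocyte-like cluster, and in the erythroid-like class cluster 5 had the highest control median.

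Beside Mt1 and Mt2, the lists of genes that answer to known inducers of metallothionein differed in hepatocyte-like cells as follows. Of 15 acute phase genes, 8 rose and 2 fell, and of 11387 genes tested in this class 22.3% rose and 24.6% fell (edgeR quasi-likelihood test, Benjamini-Hochberg adjusted p under 0.05, used for all calls). The median log2 fold change was 0.51 in the list and -0.06 over all genes. Orm1, a plasma glycoprotein, rose by 6.73 on the log2 scale (edgeR adjusted p = 0.000145), Saa2 by 5.14, Orm2 by 4.64 and Saa1 by 4.63. Their standard errors were large, 1.15 to 1.36, and their fits without anemia 2 and 3 are not given here. Steap4 fell by 1.335 and Socs3 by 0.76. Summed over the list, anemia 2 and anemia 3 had 27592 and 36379.8 CPM, the other 4 anemic mice 11147 to 15483 and the controls 12245 to 15938 CPM. The 2 mice with the most Mt1 were thus the 2 with the most acute phase RNA, while anemia 5, with 5041 CPM of Mt1, had 11858.5 CPM of the acute phase list. Of 9 hypoxia genes tested 4 rose and 1 fell. Ankrd37 rose by 2.26, the mitophagy receptor Bnip3 by 2.05, and Pdk1, which holds back pyruvate oxidation, by 0.82, while Vegfa fell by 0.70. The summed hypoxia list ranged from 265 to 325 CPM in controls and from 634.5 to 899 in anemic mice. The groups did not overlap, where 25% of the genes tested in this class did not either. Most of the rise of this sum was that of Bnip3, with means of 169.5 and 702.3 CPM after the scaling of the fit. The means of Vegfa were 76.5 and 46.2 CPM. Of 10 glucocorticoid response genes 2 rose (Zbtb16 by 0.99 and Tat by 0.61) and 2 fell (Dusp1 by 0.49 and Fkbp5 by 0.47), and the summed list overlapped between the groups. Within cluster 20 alone Orm1 (6.46), Saa2 (5.33), Orm2 (4.84), Saa1 (4.33), Ankrd37 (1.59), Bnip3 (1.22), Zbtb16 (2.00) and Tat (0.85) also passed in edgeR, while Pdk1 (0.62), Vegfa (-0.02), Dusp1 (-0.21) and Fkbp5 (0.22) did not, where 3.07% of the genes tested in this cluster rose and 1.82% fell. The part of any of these in the level of Mt1 was not tested.

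In endothelial-like cells Mt1 was about 2.29 times higher in anemic mice. Control mice had 164 to 255 CPM (median 188) and anemic mice 331 to 598 CPM (median 420), without overlap, where 10.1% of the genes tested in this class did not overlap. The fitted log2 fold change was 1.30 with a standard error of 0.15. Cluster 39 held 50.04% of the endothelial-like cells of control and 23.57% of those of anemic mice, and cluster 41 held 19.28% and 41.95%. Fitted alone they gave 1.03 and 1.38. Mt2 ranged from 14.0 to 22.9 CPM in controls and from 35.1 to 67.2 CPM in anemic mice, with a log2 fold change of 1.55. In the cells of each mouse with less hepatocyte RNA the log2 fold change of Mt1 was 1.23. In stellate-like cells Mt1 had 153 to 282 CPM in controls and 319 to 721 CPM in anemic mice, and Mt2 had 15.6 to 35.6 and 36.7 to 118 CPM. These groups did not overlap either, as was so for 7.84% of the genes tested, and the log2 fold changes were 1.43 and 1.66. With the cells called doublets left out, they were 1.46 and 1.27. Cluster 0 held 57.34% of the stellate-like cells of control and 29.49% of those of anemic mice, and cluster 52 held 39.29% and 62.38%. Of the fixed markers Colec11, Reln and Ecm1 were among the leading genes of cluster 0 only. Cluster 52 was led by Mfap4, Col1a1, Col1a2, Col3a1, Lum and Dpt, matrix genes known from fibroblasts, and the small cluster 65 by Acta2, Tagln and Myh11, known from smooth muscle, so the name stellate-like covers mesenchymal cells of more than 1 kind. Fitted alone, clusters 0 and 52 gave 1.64 and 1.26 for Mt1.

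In erythroid-like cells, the red cell precursors, both metallothioneins were higher in anemic mice. Mt1 ranged from 32.6 to 117 CPM in controls (median 70.5) and from 143 to 324 CPM in anemic mice (median 239). Mt2 ranged from 5.32 to 26.6 and from 29.3 to 109 CPM. Neither gene overlapped between the groups, against 1.42% of 10285 genes tested, and the log2 fold changes were 2.26 (standard error 0.31) and 2.60 (0.29). Free hepatocyte RNA can carry both genes into this class, and the part carried can be calculated but was not measured. With the UMIs subtracted that the hepatocyte markers found in the class would bring along at the ratio seen in hepatocyte-like cells, both genes did overlap: 13.1 to 107 CPM of Mt1 were left in controls and 64.6 to 244 in anemic mice, and 4.67 to 26.3 and 23.7 to 102 CPM of Mt2. The control values rest on 535 UMIs of Mt1 and 92 of Mt2, those of anemic mice on 9303 and 2134. Cluster 5, whose leading genes were Car1 and, among others, the Rh genes Rhd and Rhag, held 6.58% of the erythroid-like cells of control and 6.61% of those of anemic mice, and 70.3% and 50.2% of the Mt1 UMIs. Its levels were 91.0 to 337 CPM (median 188) in controls and 375 to 1012 CPM (median 564) in anemic mice. The rest of the class was made up differently in the 2 groups: clusters 28 and 45 held 12.45% and 9.91% of the control cells and 26.5% and 25.54% of the anemic cells, and clusters 27 and 30 held 34.56% and 30.71% against 21.26% and 16.87%. The groups did not overlap within clusters 5, 27, 29 and 30, and overlapped within clusters 28 and 45. Cluster 29, whose cells carried the hepatocyte markers at medians of 30343.5 and 18156 CPM, held 10.95% of the Mt1 UMIs of the class in anemic mice. Apart from Mt1 and Mt2, 0 of 58 zinc, copper, inducer and hypoxia genes tested in this class passed the test with edgeR and 0 with DESeq2, where 0.35% of all genes passed with edgeR. At an unadjusted p under 0.05 there were 12 with edgeR, and the joint limma voom model called 7.

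In macrophage-like cells, a class that includes the resident Kupffer cells but not only these, Mt1 was as high in controls as in hepatocyte-like cells. Control mice had 312 to 407 CPM (median 359) and anemic mice 228 to 709 CPM (median 462), so the groups overlapped. Anemia 2 with 228 CPM lay below every control and anemia 3 with 353 CPM among them, while the other 4 anemic mice lay above. The 2 anemic mice with the highest Mt1 in hepatocyte-like cells thus had the lowest in macrophage-like cells. The log2 fold change was 0.45 with all mice and 0.66 with anemia 2 and 3 left out. Cluster 3, led by Clec4f, held 0.53% and 9.30% of the class in anemia 2 and anemia 3, 46.8% to 54.5% in the other anemic mice and 53.3% to 63.7% in controls, and cluster 4, led by Prg4, held 54.2% and 49.7% in these 2 mice and at most 13.6% in any other. Mt1 had 333 to 429 and 208 to 583 CPM in cluster 3 and 346 to 826 and 201 to 1429 CPM in cluster 4, and the groups overlapped in both. Mt2 was low, with 2.22 to 4.83 CPM in controls and 5.05 to 20.8 CPM in anemic mice, and did not overlap (3.47% of the genes tested in this class did not), with a log2 fold change of 1.89. The anemic levels were 1.64 to 2.63 times the hepatocyte ratio of Mt2, and with the part carried at that ratio subtracted the groups overlapped, with 1.91 to 4.45 CPM left in controls and 2.50 to 9.87 in anemic mice. In monocyte-like cells Mt1 had 61.8 to 178 CPM in controls and 160 to 365 in anemic mice. Anemia 2 and anemia 3 gave 5021 and 2323 monocyte-like cells, where the other anemic mice gave 285 to 505 and the controls 265 to 513. In these 2 mice cluster 46 held 24.7% and 57.8% of the class and cluster 47 held 61.4% and 26.3%, whereas in the other 4 anemic mice cluster 46 held 81.1% to 91.7% and in controls 79.9% to 92.8%. Within cluster 46 alone Mt1 had 43.6 to 108 CPM in controls and 124 to 199 CPM in anemic mice, without overlap. Over the class 8.20 to 15.0 CPM would be carried at the hepatocyte ratio in controls and 36.9 to 121 CPM in anemic mice. What was left in the class overlapped, with 53.65 to 163 and 83.3 to 293 CPM, and no such part is given for cluster 46 alone. In dendritic-like cells Mt1 had 79.3 to 124 and 102 to 215 CPM. In both classes the groups overlapped, as they did for all but 1.32% and 0.94% of the genes tested. Neutrophil-like cells had 33.0 to 54.0 and 68.8 to 230 CPM without overlap (1.23% of the genes tested). Of this, 37.2 to 144 CPM would be carried at the hepatocyte ratio in anemic mice. What was left overlapped, with 23.9 to 39.7 CPM in controls and 31.6 to 86.7 CPM in anemic mice. Of the neutrophil-like cells cluster 9 held 28.9% to 40.6% in controls, 36.5% to 48.0% in 5 anemic mice and 80.5% in anemia 2, and cluster 10 held 38.3% to 42.3%, 31.8% to 33.4% and 8.52%. Mt1 had 15.7 to 57.4 and 78.6 to 376 CPM in cluster 9, without overlap, and 8.75 to 36.3 and 34.8 to 148 CPM in cluster 10, where the groups overlapped.

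The lymphocyte classes had the least Mt1. In B-like cells it ranged from 11.7 to 26.1 CPM in controls and from 31.6 to 124 CPM in anemic mice, in pre-B-like cells from 21.5 to 32.8 and 36.6 to 73.9, in T-like cells from 10.5 to 28.6 and 29.2 to 114, and in NK-like cells from 9.77 to 16.6 and 23.2 to 69.1 CPM. The groups did not overlap in these 4 classes, against 2.61%, 1.62%, 0.92% and 1.49% of the genes tested. Mt2 was at most 10.1 CPM in any mouse and lymphocyte class, and in T-like cells it was not tested, with 5 UMIs in controls and 45 in anemic mice.

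Free RNA of hepatocytes enters droplets of other cells, so Mt1 in each class was set against 8 hepatocyte markers (Alb, Apoa1, Ttr, Trf, Ahsg, Apob, Cps1 and Serpina1a) in the same class and mouse. Mt1 UMIs per marker UMI were divided by the same ratio in the hepatocyte-like cells of that mouse, so that 1 is the hepatocyte ratio. In control mice Mt1 was above 1 in all 11 other classes and all 6 mice (exact two-sided sign-flip test, p = 0.03125 in each class, the smallest that 6 mice allow, adjusted p = 0.03125 over 11 classes). This sets Mt1 against hepatocyte RNA only. Free RNA and doublets from other classes with Mt1, such as macrophage-like cells, can also raise the value, and their part was not tested. The values were 32.8 to 45.3 in macrophage-like, 24.4 to 43.9 in stellate-like and 22.7 to 37.6 in endothelial-like cells. They were 1.67 to 11.8 in erythroid-like cells and 1.19 to 1.94 in B-like, 1.22 to 2.46 in T-like and 1.38 to 1.73 in NK-like cells, and 3.92 to 8.54 in pre-B-like and 3.56 to 5.83 in neutrophil-like cells. Monocyte-like cells had 7.54 to 13.2 and dendritic-like cells 8.77 to 22.4.

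In anemic mice, which are described without a test, macrophage-like cells had 3.15 to 13.1 times the hepatocyte ratio of Mt1, stellate-like cells 8.58 to 18.6, endothelial-like cells 6.83 to 14.8 and erythroid-like cells 1.83 to 5.38. B-like cells had 0.627 to 1.10, T-like cells 0.664 to 1.21 and NK-like cells 0.748 to 1.13, with 1 of 6 mice above 1 in each of these 3 classes. In each of these classes the Mt1 of 5 of 6 anemic mice was thus no more than their hepatocyte RNA carries at the hepatocyte ratio. The mouse above 1 was anemia 5 in B-like and T-like cells and anemia 3 in NK-like cells. Pre-B-like cells had 1.17 to 2.23 and neutrophil-like cells 1.32 to 2.28, above 1 in all 6 mice. Monocyte-like cells had 1.77 to 5.06 and dendritic-like cells 1.81 to 6.35, also above 1 in all 6 mice. In pre-B-like cells of anemic mice 17.6 to 63.4 CPM of Mt1 would be carried at the hepatocyte ratio. Subtraction left a median of 14.7 CPM, lower than the 22.9 CPM left in controls, whereas the measured level was higher in anemic mice. The carried part is calculated, on the assumption that free RNA has the ratio of hepatocyte-like cells. It can exceed what was measured: in B-like cells of anemia 2 it was 101 CPM, against 63.5 CPM of measured Mt1. Values left after subtraction, in any class, may therefore be too low in anemic mice. For Mt2 the anemic values were 0.709 to 1.75 in B-like, 0.895 to 2.79 in T-like and 0.812 to 1.72 in NK-like cells, with 3, 4 and 5 of 6 mice above 1. The share of these lymphocyte levels that came from free RNA was not tested. The summed hepatocyte markers in endothelial-like cells were 2168 to 3866 CPM in controls and 440 to 2276 in anemic mice, and in erythroid-like cells 4881 to 7496 and 688 to 4025. The anemic mean was lower for all 8 markers in 8 of the 11 classes and for 7 of 8 in the other 3, and no marker was at 0 in every mouse. At the hepatocyte ratio these marker sums carry 23.0 to 87.6 CPM of Mt1 into endothelial-like cells and 35.2 to 140 CPM into erythroid-like cells of anemic mice, against the measured 331 to 598 and 143 to 324 CPM.

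**Figure D3:**
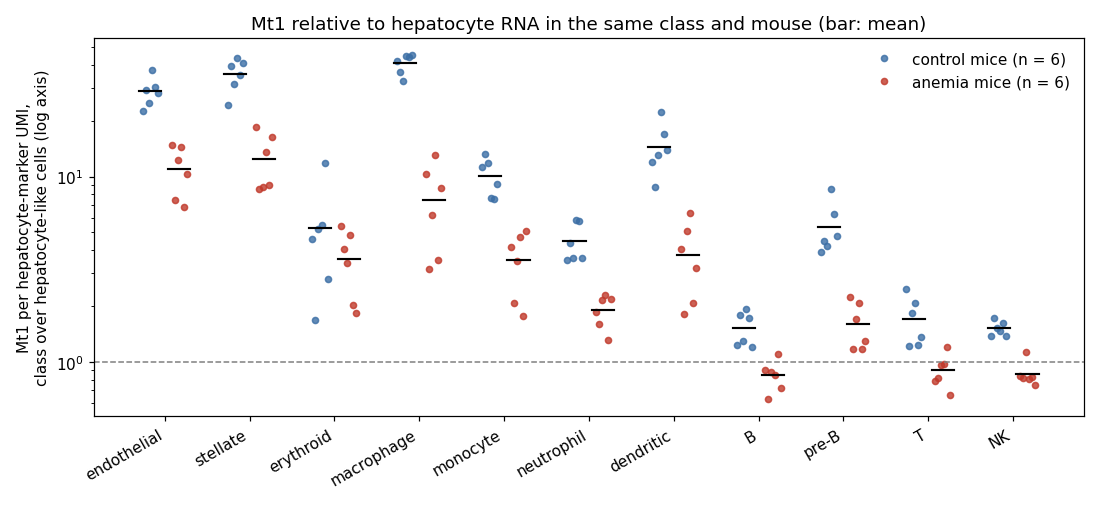
Mt1 UMIs per UMI of 8 hepatocyte markers in each class, divided by the same ratio in hepatocyte-like cells of the same mouse (log axis), with 1 point per mouse and a bar at the mean. The dashed line at 1 is the hepatocyte ratio, around which B-like, T-like and NK-like cells of anemic mice lay.

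For Mt2 the ratio was above that of hepatocytes in 8 of 11 classes in control mice (adjusted p = 0.0430 in each, exact sign-flip test). Monocyte-like, neutrophil-like and T-like cells did not pass (exact sign-flip test, adjusted p = 0.0625), and there some controls had no Mt2 UMI. With doublets left out B-like cells did not pass either (0.509 to 4.14, exact sign-flip test, adjusted p = 0.0625), and the lowest pre-B-like control was at 0.969. The controls held 26 Mt2 UMIs in B-like and 26 in pre-B-like cells. Control stellate-like cells had 62.6 to 127 times, endothelial-like cells 37.0 to 92.5 times and macrophage-like cells 5.09 to 12.7 times the hepatocyte ratio of Mt2.

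The balance of the 2 metallothioneins was compared between classes. In control mice there were 16.5 to 31.3 Mt1 UMIs per Mt2 UMI in hepatocyte-like cells, 9.89 to 12.0 in endothelial-like, 7.93 to 9.93 in stellate-like and 4.40 to 7.31 in erythroid-like cells, but 81.0 to 159 in macrophage-like cells. The ratio was lower than in hepatocyte-like cells in 6 of 6 control mice in the endothelial-like, stellate-like, erythroid-like and NK-like classes, and higher in 6 of 6 in the macrophage-like and neutrophil-like classes. Each of these gave p = 0.03125 in the exact sign-flip test and 0.0573 after adjustment over 11 classes, so none passed. In anemic mice the ratio was 10.3 to 16.5 in hepatocyte-like cells (median 13.3, against 25.1 in controls) and 21.3 to 86.4 in macrophage-like cells (median 42.3, against 121), without subtraction of the part carried by hepatocyte RNA.

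Ordered by mean level in control mice, Mt1 was highest in macrophage-like (357 ± 31.5 CPM, SD, n = 6) and hepatocyte-like cells (356 ± 83.9), followed by endothelial-like (194 ± 34.4), stellate-like (194 ± 46.7), monocyte-like (119 ± 52.9), dendritic-like (95.04 ± 16.3), erythroid-like (72.1 ± 34.7), neutrophil-like (43.8 ± 8.61), pre-B-like (27.9 ± 4.65), B-like (18.2 ± 4.76), T-like (17.9 ± 7.13) and NK-like cells (12.9 ± 3.04). Macrophage-like and hepatocyte-like cells did not differ beyond their spread (exact sign-flip p = 0.75), nor did endothelial-like and stellate-like cells (exact sign-flip p = 0.8125). Of the 11 neighbouring pairs, 3 kept their order in all 6 controls, and none passed the exact sign-flip test after adjustment (smallest adjusted p = 0.115). Mt2 had another order, led by stellate-like (21.6 ± 7.06 CPM), endothelial-like (17.8 ± 3.33), hepatocyte-like (16.3 ± 7.32) and erythroid-like cells (13.03 ± 8.39), with macrophage-like cells at 3.23 ± 1.14 CPM. Of its 11 neighbouring pairs 2 kept their order in all controls, and the smallest adjusted p of the exact sign-flip test was 0.172. The place of erythroid-like cells in the order of each gene depends on the globin UMIs in their total. No order without globin UMIs is given here.

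Over the 12 class means of control mice, genes much like Mt1 in log2 level among 7692 genes were Osbpl1a (Pearson r = 0.92), Tspan31 (0.91), Cd302 (0.90) and Snx24 (0.90). The 5 most like Mt2 were Cd59a (0.89), Daam1 (0.89), Tceal8 (0.88), Abcg2 (0.88) and Arhgef12 (0.87). The 12 points share mice and libraries, so the coefficients are descriptions.

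Slc30a1 encodes ZnT1, the exporter that moves zinc across the plasma membrane, and its transcription is known to follow MTF1. It was tested in all 12 classes and called in none by edgeR, with log2 fold changes from -0.65 to 0.24. Its unadjusted p was under 0.05 in 5 classes, DESeq2 called it in 0 and the joint limma voom model in 2, the endothelial-like and B-like classes. In hepatocyte-like cells it had 9.48 to 22.7 CPM in controls (median 14.3) and 9.33 to 13.7 CPM in anemic mice (median 11.0), which overlapped (log2 fold change -0.21, standard error 0.18, edgeR adjusted p = 0.372). In macrophage-like cells, which had the most Slc30a1, it ranged from 47.6 to 69.6 and from 46.8 to 74.3 CPM (log2 fold change 0.12, edgeR adjusted p = 0.649). In endothelial-like cells it was 14.6 to 19.2 and 13.9 to 21.8 CPM (0.21, edgeR adjusted p = 0.203), and there DESeq2 did not call it while the joint limma voom model did (0.28, adjusted p = 0.0294). The largest fitted differences were in the lymphocytes, where B-like cells had 7.69 to 12.7 CPM in controls and 4.13 to 9.92 CPM in anemic mice (-0.62, edgeR adjusted p = 0.0696). The share of all tested genes called in either direction was 46.9% in the hepatocyte-like class, 17.9% in the endothelial-like, 17.2% in the stellate-like, 3.95% in the B-like, 2.6% in the macrophage-like, 1.42% in the pre-B-like, 0.756% in the NK-like, 0.658% in the dendritic-like, 0.617% in the monocyte-like, 0.594% in the T-like, 0.478% in the neutrophil-like and 0.35% in the erythroid-like class. In the first 3 of these classes the number of genes called stayed within 1.5 times when single mice were left out. In the other 9 it did not: macrophage-like calls numbered 378 and 112 without control 1, B-like calls 501, 248 without control 1 and 846 without anemia 6, and pre-B-like calls 175 and 66 without control 1.

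Slc30a10, known as a manganese exporter of liver, rose in hepatocyte-like cells. Control mice had 11.8 to 19.9 CPM (median 14.7) and anemic mice 16.4 to 28.0 CPM (median 24.6). Of the 6 anemic mice 5 lay above every control, and anemia 5, the lowest, lay among them. The log2 fold change was 0.72 with a standard error of 0.15 (edgeR adjusted p = 0.000895), in a class where 22.3% of all tested genes rose. The values rest on 266 UMIs in controls and 416 in anemic mice. Within cluster 20 alone it had 11.6 to 23.7 CPM in controls and 28.7 to 55.9 CPM in anemic mice, without overlap (log2 fold change 1.20, edgeR adjusted p = 0.000579). Slc30a10 was tested in 2 further classes, where it was not called: erythroid-like cells had 3.00 to 9.23 and 1.21 to 7.23 CPM, and endothelial-like cells at most 1.63 CPM. In control mice hepatocyte-like cells led with 15.0 ± 2.89 CPM (SD, n = 6), followed by erythroid-like cells with 5.62 ± 2.65, and every other class had a mean under 1 CPM.

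Slc39a14 encodes ZIP14, which imports zinc, manganese and iron not bound to transferrin, and its summed level fell in hepatocyte-like cells. Control mice had 123 to 180 CPM (median 146) and anemic mice 73.8 to 105 CPM (median 82.0). Every anemic mouse lay below every control. The log2 fold change was -0.65 with a standard error of 0.11 (edgeR adjusted p = 0.000137), where 24.6% of all tested genes fell. The direction was the opposite within cluster 20, which had most Slc39a14 and the smaller share of the class in anemic mice. There it had 228 to 290 CPM in controls (median 254) and 276 to 385 CPM in anemic mice (median 334), which overlapped, and fitted alone the cluster gave a log2 fold change of 0.39 with a standard error of 0.11 (edgeR adjusted p = 0.0468), in a cluster where 3.07% of the genes tested rose. The control medians of the other 4 clusters were 0 to 30.7 CPM, and the groups overlapped in each of them. In control mice the level in hepatocyte-like cells, 148 ± 20.9 CPM (SD, n = 6), was above that of dendritic-like cells, 24.8 ± 2.43, in all 6 (exact sign-flip p = 0.03125, adjusted 0.115), and the other 10 classes had means of 3.46 to 11.9 CPM. The calls of Slc30a10 and Slc39a14 in this class held in each alternative fitted on the class. In cluster 25 alone neither gene had enough UMIs to be tested.

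In stellate-like cells as a class Slc39a14 was called higher, but within neither of its main clusters. Control mice had 8.48 to 16.7 CPM and anemic mice 12.6 to 27.7 CPM, which overlapped. The log2 fold change was 0.64 with a standard error of 0.20 (edgeR adjusted p = 0.0387), in a class where 8.91% of all tested genes rose. This call did not hold with anemia 3, 5 or 6 or with control 1, 2, 4, 5 or 6 left out (edgeR adjusted p = 0.0502 to 0.0891 in these fits). With the cells called doublets left out, most of the class was gone and the value was 0.10 (edgeR adjusted p = 0.963). It was -0.09 in cluster 0 alone (edgeR adjusted p = 0.944) and 0.31 in cluster 52 alone (edgeR adjusted p = 0.621), where controls had median levels of 5.97 and 19.3 CPM. In the other 10 classes Slc39a14 was not called, with log2 fold changes of -0.35 to 0.24.

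Mtf1, the zinc sensor itself, was called lower in the endothelial-like and stellate-like classes, but within neither main cluster of the latter. It was not called in the other 10 classes. Endothelial-like cells of control mice had 61.6 to 70.8 CPM (median 67.7) and those of anemic mice 41.8 to 59.6 CPM (median 52.0). The groups did not overlap, as for 10.1% of the genes tested in this class. The log2 fold change was -0.29 with a standard error of 0.08 (edgeR adjusted p = 0.0162), where 10.3% of all tested genes fell. Without control 4 the value was -0.27 (edgeR adjusted p = 0.0513). Within cluster 39 alone Mtf1 had 61.9 to 75.6 CPM in controls and 27.8 to 52.0 CPM in anemic mice (-0.51, edgeR adjusted p = 0.00158). Within cluster 41 alone it had 67.6 to 77.2 and 41.6 to 66.9 CPM, also without overlap, and did not pass (-0.28, edgeR adjusted p = 0.0881). Of all genes tested in these clusters 9.1% and 8.94% fell. Stellate-like cells had 40.1 to 53.9 CPM in controls and 24.9 to 39.5 CPM in anemic mice, without overlap, as for 7.84% of the genes tested. The TMM factors of the fit, left out of these levels, were 1.01 to 1.05 in controls and 0.949 to 0.983 in anemic mice. In endothelial-like cells they were 1.01 to 1.05 and 0.931 to 0.994. Whether Mtf1 overlaps after that scaling is not given here. In stellate-like cells the log2 fold change was -0.43 (standard error 0.11, edgeR adjusted p = 0.0132), where 8.29% of all tested genes fell. With doublets left out the value was -0.45 (edgeR adjusted p = 0.364). Within cluster 0 alone it was -0.07 (edgeR adjusted p = 0.816) and within cluster 52 alone -0.14 (edgeR adjusted p = 0.865), with overlap in both, and their control medians were 61.1 and 22.3 CPM. In hepatocyte-like cells, where Mt1 and Mt2 differed most, Mtf1 had the lowest control mean of the 12 classes, 11.05 ± 1.75 CPM (SD, n = 6). It ranged from 9.23 to 13.4 CPM in controls and from 9.33 to 15.1 CPM in anemic mice (log2 fold change 0.20, edgeR adjusted p = 0.302). In control mice endothelial-like cells had the most Mtf1, 67.5 ± 3.33 CPM, above stellate-like cells, 47.7 ± 5.40, in all 6 (exact sign-flip p = 0.03125, adjusted 0.172).

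**Figure D4:**
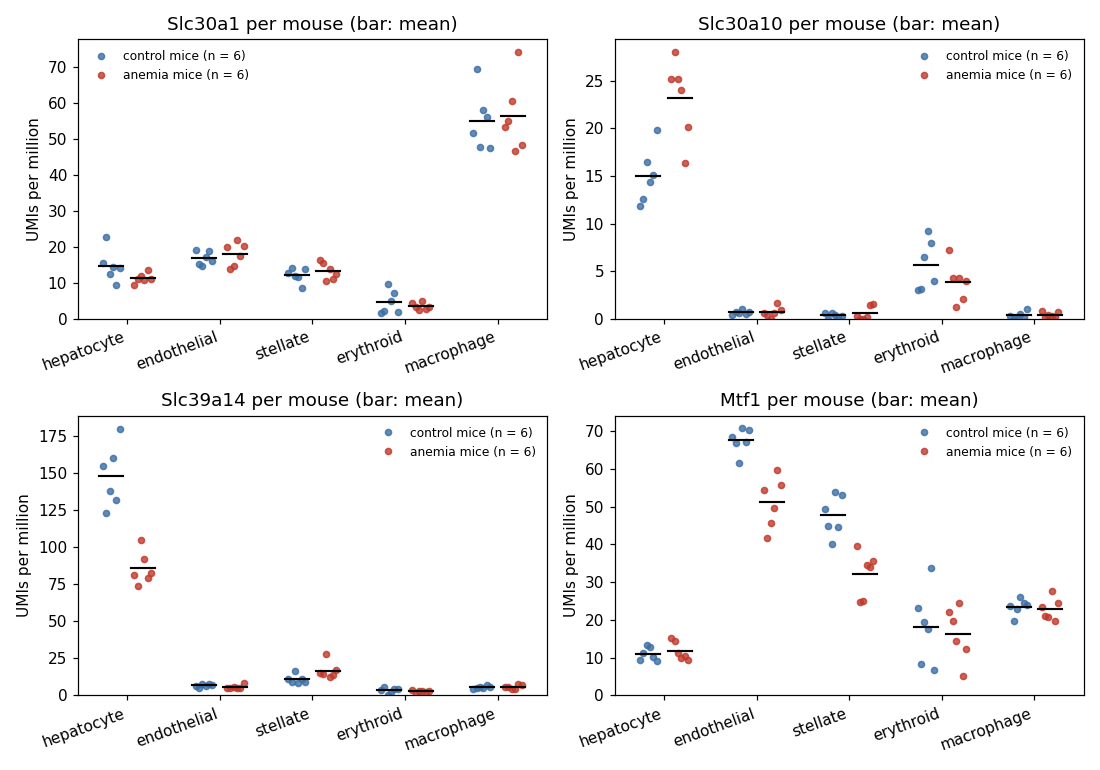
Slc30a1, Slc30a10, Slc39a14 and Mtf1 in 5 cell classes, in CPM, with 1 point per mouse (6 control in blue, 6 anemic in red) and a bar at the mean. In hepatocyte-like cells Slc39a14 of anemic mice lay below all controls, and in endothelial-like and stellate-like cells Mtf1 did.

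The other genes of the zinc pathway were called in both directions in hepatocyte-like cells as a class. Of 10 Slc30 genes 7 were tested, of which 2 rose and 3 fell, beside 22.3% and 24.6% of all genes, with a median log2 fold change of -0.23 against -0.06 over all genes. Beside Slc30a10, Slc30a9 rose by 0.48, while Slc30a5 fell by 0.65, Slc30a4 by 0.64 and Slc30a7 by 0.59, the last 3 being exporters that load zinc into vesicles and the secretory pathway. Of 14 Slc39 genes 12 were tested, of which 1 rose and 5 fell (median -0.33). Slc39a4, the importer of dietary zinc, fell most: it had 48.1 to 70.5 CPM in controls and 10.2 to 19.9 CPM in anemic mice (log2 fold change -1.71, standard error 0.15, edgeR adjusted p = 3.14e-07). Slc39a10 fell by 1.38, Slc39a8, the closest relative of Slc39a14, by 0.92 and Slc39a9 by 0.82, and Slc39a1 rose by 0.38. Within cluster 20 alone Slc39a4 passed again (-1.40, edgeR adjusted p = 1.12e-05), while Slc39a10 (-1.19), Slc39a8 (-0.51), Slc39a9 (-0.42), Slc39a1 (-0.17), Slc30a9 (0.34), Slc30a5 (0.02), Slc30a4 (-0.03) and Slc30a7 (-0.15) did not. Of the 36 list genes called in the class, 12 were called in the same direction in cluster 20 and 1, Slc39a14, in the other, and of the 22 tested in cluster 25, 5 were called in the same direction, where 3.88% of all genes tested in cluster 25 rose and 2.5% fell. Scaling matters for the smaller values. Without TMM factors the median over all genes was -0.28 in place of -0.06, the calls in this class were 1484 higher and 4202 lower in place of 2543 and 2800, and Slc39a1 (0.17, adjusted p = 0.181) and Slc30a9 (0.26, adjusted p = 0.0549) no longer passed in edgeR, though none of these genes changed direction.

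Of 11 copper genes 3 rose and 3 fell in hepatocyte-like cells, beside 22.3% and 24.6% of all genes, and none of the 6 passed in cluster 20 or, where tested, in cluster 25 alone. The copper chaperones Cox17, Atox1 and Ccs rose by 0.79, 0.71 and 0.49, while the copper-exporting ATPase Atp7b fell by 0.96, ceruloplasmin (Cp) by 0.86 and Sod1 by 0.51. In cluster 20, which is led by Cp among others, the log2 fold changes of Atp7b and Cp were -0.23 and 0.09. Slc30a9, Slc39a1, Sod1, Ccs, Steap4 and Socs3 were named after their values were seen. In endothelial-like cells 1 of 8 Slc30 genes (Slc30a4, 0.57), 1 of 12 Slc39 genes (Slc39a1, 0.28) and 1 of 11 copper genes (Atp7a, 0.63) rose and none fell, where 7.66% of all tested genes rose. Without TMM factors 827 genes were called higher and 2812 lower in this class in place of 1304 and 1746, and in stellate-like cells 1044 and 2001 in place of 1383 and 1286. Without TMM factors Slc39a1 had 0.18 there (edgeR adjusted p = 0.0877). In macrophage-like cells 0 of 6 Slc30, 0 of 12 Slc39 and 0 of 10 copper genes passed, where 2.6% of all tested genes did. Of these 28 genes 4 had an unadjusted edgeR p under 0.05, and DESeq2 and the joint limma voom model called 0. Of the inducer lists, 6 of 11 hypoxia, 3 of 14 acute phase and 2 of 10 glucocorticoid response genes rose in macrophage-like cells, with median log2 fold changes of 0.77, 0.10 and -0.07 against 0.04 over all genes. With single mice left out 7 to 16 list genes were called in macrophage-like cells. In endothelial-like cells 7 of 11 hypoxia, 3 of 14 acute phase and 4 of 10 glucocorticoid response genes rose and 1 of the last fell, with medians of 0.59, 0.20 and 0.27 against 0.00.

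**Figure D5:**
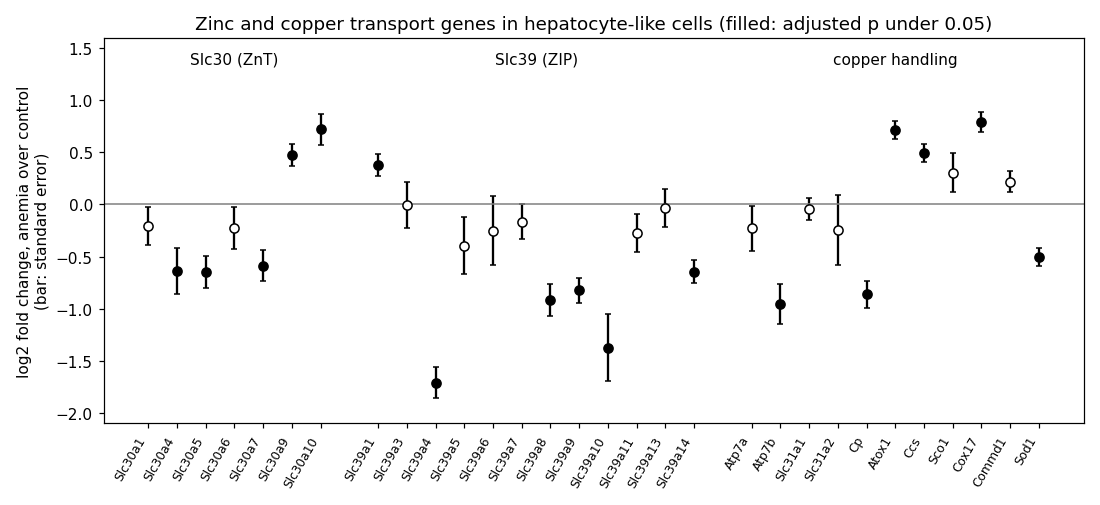
Log2 fold change, anemia over control, of the Slc30, Slc39 and copper genes tested in hepatocyte-like cells, with bars for the standard error and filled points for an edgeR adjusted p under 0.05. Slc39a4 lay lowest at -1.71 and Cox17 highest at 0.79.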

How the data were processed

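The authors counted UMIs per gene and cell with Cell Ranger 7.0.0 per the file headers, on the mm10 build per the submitters' processing notes, and deposited raw counts per library. Whether intronic reads were counted is not given in the sources used here, and the reagent kit version differs between the labels and the methods.

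Barcodes were kept if they held between 500 and 50000 UMIs, of which mitochondrial genes took no more than 50%. Cells were clustered with scanpy 1.11.5 (2000 variable genes without the zinc genes, 20 principal components, 20 neighbours, Leiden resolution 2) and clusters were named from fixed markers. Doublets were called against simulated ones, kept, and left out as an alternative. The share called was set beforehand by library size, at about 0.8% per 1000 cells, which gave 12.2% to 18.4% of cells. Of planted doublets 81.5% to 89.4% were recovered. These were themselves part of the simulated reference, so this recovery is no independent check of the calls.

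UMIs were summed per mouse and class and tested with edgeR 4.0.16 (R 4.3.3, quasi-likelihood, TMM, genes averaging 5 or more UMIs in a mouse, mitochondrial and ribosomal protein genes left out), with Benjamini-Hochberg adjustment over all genes tested in a class and a threshold of 0.05. DESeq2 1.42.0 and a joint limma 3.58.1 voom model were alternatives. In counts simulated for hepatocyte-like cells, 73 of 100 genes changed by 1 and 96 of 100 changed by 2 on the log2 scale were recovered, with 9 false calls. In those for erythroid-like cells 43 and 86 of 100 were recovered. Only 200 genes were changed in each simulation, as many up as down, and the libraries did not otherwise differ in composition. The simulation therefore does not measure errors of scaling. Levels within mice were compared between classes over the control mice with exact sign-flip tests, which went through all sign patterns (own code, Python 3.11.15). P-values measure the spread between these pups.

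The members, the lists (metallothioneins, Slc30, Slc39, copper, glucocorticoid response, acute phase and hypoxia genes) and the markers were chosen with earlier results of these data known. Named were the 6 members, per list and main class the called genes with the 4 largest changes, and the 5 genes most like Mt1 and Mt2 among genes with at least 50 CPM in 1 class. A single one of the genes so named is not reported here. Ratios of UMIs used a pseudocount of 0.5 in the tests and none in the printed values, and log2 levels used one of 1 CPM. Other alternatives were a limit of 10% on mitochondrial UMIs, Leiden resolution 1, globin UMIs left out, cells with less hepatocyte RNA, Alb alone as the hepatocyte marker, no TMM factors, no filter on low counts, sex as a covariate, a replicate block, each mouse left out, and, both added after the data were seen, anemia 2 and 3 left out and single clusters fitted alone (in 3 classes, those whose share of the class differed most between the groups in each direction). Protein sequences were not used here.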

Additional observations from a re-analysis of the deposited data

Results flagged for a closer look

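Of 124 groups of 6 mice read for a mouse far from the rest, 11 held one, where chance gives about 1 in 20. Each was a mouse whose gap to the nearest other exceeded Dixon's critical share of the range of its group. Mt1 in monocyte-like cells was 365 CPM in anemia 6, where the other anemic mice had 160 to 217. Anemia 5 had 124 CPM of Mt1 in B-like cells (others 31.6 to 63.5) and 114 CPM in T-like cells (others 29.2 to 50.8). Mt2 in stellate-like cells was 35.6 CPM in control 3 (others 15.6 to 20.8).

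Slc30a1 in neutrophil-like cells was 9.44 CPM in anemia 2 (others 2.61 to 4.88), and in pre-B-like cells 8.40 CPM in control 2 (others 4.97 to 6.21). Slc39a14 was 8.69 CPM in endothelial-like cells of anemia 6 (others 4.75 to 5.57). In stellate-like cells Slc39a14 was 16.7 CPM in control 3 (others 8.48 to 11.1) and 27.7 CPM in anemia 3 (others 12.6 to 16.9). In monocyte-like cells it was 1.44 CPM in control 5 (others 7.66 to 11.1), and Mtf1 there was 6.90 CPM in anemia 4 (others 16.0 to 18.9). No explanation was tested for these values.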

How the results depend on the processing

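Over 48 results and 1100 alternative values, 1048 kept their direction and their side of the threshold or stayed within the spread. Of the 1048, 291 were of Mt1 and 263 of Mt2, which were chosen for their rise and held to no threshold. Direction turned in 13 values. Of these, 2 were of called values: Slc39a14 in hepatocyte-like cells was -0.65 in the class and 0.39 in cluster 20 alone (edgeR adjusted p = 0.0468), and in stellate-like cells 0.64 in the class and -0.09 in cluster 0 alone (edgeR adjusted p = 0.944). The others passed neither in the class nor in the fit named: Slc39a14 in endothelial-like cells with less hepatocyte RNA (0.02), Slc30a1 in hepatocyte-like cells in cluster 20 alone (0.51), in erythroid-like cells with less hepatocyte RNA (-0.04) and without TMM factors (-0.11), Slc30a10 in endothelial-like cells in the joint limma voom model (-0.12) and over single mice left out (-0.21 to 0.39), and Mtf1 in hepatocyte-like cells in cluster 20 alone (-0.10) and without TMM factors (-0.01), in erythroid-like (-0.13) and macrophage-like cells (-0.02) without TMM factors, and in the latter over single mice left out (-0.01 to 0.09). Within cluster 20 alone Mt1 was 2.70 and Mt2 3.70, Mt2 was 6.06 in cluster 25, Mtf1 in endothelial-like cells was -0.28 in cluster 41, and the stellate-like calls were lost in clusters 0 and 52. Mt1 in hepatocyte-like cells ranged from 3.53 to 4.15 and Mt2 from 4.37 to 5.02 (log2 fold change) when single mice were left out. Mtf1 in endothelial-like cells ranged from -0.34 to -0.26 and passed without each mouse but control 4 (-0.27, edgeR adjusted p = 0.0513). The stellate-like calls were lost with doublets left out (Slc39a14 0.10, Mtf1 -0.45), and that of Slc39a14 also without TMM factors (0.55, edgeR adjusted p = 0.0643), with sex as a covariate (0.60, 0.0951), with anemia 2 and 3 left out (0.51, 0.0783) and without 8 single mice. Slc30a1 in endothelial-like cells passed with anemia 2 and 3 left out (0.33, edgeR adjusted p = 0.0298). Of the list genes apart from Mt1 and Mt2, 36 were called in hepatocyte-like cells, 23 at the limit of 10% mitochondrial UMIs, 16 in cluster 20 alone and 5 in cluster 25 alone, where fewer cells were summed. In erythroid-like cells 0 were called, against 7 in the joint limma voom model, 1 without TMM factors, 2 with no filter on low counts and 1 with the replicate block. In macrophage-like cells 11 were called, and 7 to 16 with single mice left out, with 7 without anemia 3, control 1, control 4 or control 6. For Mt2, 2 neighbouring classes were ordered alike in every control and 1 with doublets left out. The cause of these shifts was not tested. All genes called in hepatocyte-like cells numbered 5343, and 2412 at the limit of 10% mitochondrial UMIs, 467 in cluster 20 alone and 334 in cluster 25 alone. In stellate-like cells they numbered 2669, and 479 with doublets left out, 895 in cluster 0 alone and 50 in cluster 52 alone, and in erythroid-like cells 36, against 1144 in the joint limma voom model. Without TMM factors the erythroid-like calls were 9 higher and 41 lower in place of 33 and 3, with a median over all genes of -0.30 in place of 0.01. Without TMM factors the split was 134 higher and 208 lower in place of 195 and 183 in macrophage-like cells and 23 and 40 in place of 35 and 36 in monocyte-like cells. With single mice left out, genes called ranged from 12 to 77 in erythroid-like, 15 to 90 in monocyte-like, 29 to 72 in neutrophil-like, 28 to 160 in dendritic-like, 18 to 73 in T-like and 37 to 150 in NK-like cells, with the lowest count without control 1 in the erythroid-like, monocyte-like and T-like classes. Deviations of same-numbered mice had r from -0.45 to 0.55 over 72 pairs (32 over 0.1, 21 correlating best with their own number). The mice numbered 4 were over 0.1 in 12 of 12 classes and those numbered 1 in 11, the others in 1 to 4, so not every number pairs its mice and the numbers were not used as pairs, and the replicate block changed no call of the 6 genes (Mt1 in hepatocyte-like cells 3.66).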
